A study of Rattus norvegicus with 24 samples.

Results

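Mitosis and spindle genes were followed in the liver of rats fed rotenone. They were 46 gene symbols of proteins that build the spindle, hold or compact chromosomes, run the mitotic checkpoint or split the dividing cell. All 46 were found among the 22093 genes that the array annotation names by 1 symbol, and each was read from the transcript cluster of that symbol with the highest mean over the 24 livers. The animals were male Wistar rats (RccHan:WIST) aged 7 to 8 weeks. Control animals ate untreated food (0 ppm) and rotenone animals ate food with 400 ppm rotenone, and both were killed on day 1, day 3 or day 14. The 6 groups are named control or rotenone with the day, and 4 of the 5 animals of each study group were arrayed, 1 Affymetrix Rat Transcriptome Array per animal, so that each group held 4 livers. The animals shared cages, and which animals shared one was not given in the sources used here.

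Rotenone is a plant compound that blocks complex I of the mitochondrial respiratory chain, and it is also known to bind tubulin and to hinder microtubule assembly. Most hepatocytes of an adult liver rest outside the cell cycle, while a young rat's growing liver still holds dividing cells. The genes described here are mostly transcribed late in the cycle, in G2 and mitosis: cyclin B with Cdk1 starts mitosis, kinesins and microtubule proteins build the spindle, kinetochores tie chromosomes to it, and the anaphase promoting complex then destroys cyclin B. Many of them are held off in resting cells by the DREAM complex, which acts through a promoter element called the cell cycle genes homology region (CHR), often beside CCAAT boxes bound by NF-Y. In whole liver RNA, fewer cells of a type and less RNA per cell cannot be told apart.

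Promoters were available in the RefSeq table (build GRCr8, 250 bases before to 50 after the annotated start) for 41 of the 46 genes. Ccna2, Aurkb, Tpx2, Racgap1 and Pbk were not matched. The letters of the CHR (TTTGAA, or TTCAAA on the other strand) stood in 26 of the 41 (63.4%), against 18.3% of all 33469 rat promoters of that length. The letters CCAAT (or ATTGG) stood in 29 (70.7%), against 37.5% of all promoters, and 22 (53.7%) held them more than once, against 11.2%. Both kinds stood together in 20 (48.8%), against 7.41%. E2F letters (TTCCCGC, or GCGGGAA) were rarer, in 5 of the 41 (12.2%) against 4.21% of all promoters. CHR and CCAAT letters can overlap, as in Mki67, where a CHR match shares its last base with a CCAAT match on the other strand. In all 26 genes with CHR letters at least 1 match began no more than 100 bases before the start, which held for 44.8% of the 6140 rat promoters with CHR letters. That window was chosen after the positions were seen. A match describes letters in this window and is not evidence of binding.

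The promoters of 5 genes whose values are given below are printed 5′ to 3′ with CHR and CCAAT letters of either strand in capitals. They are the first 5 of the 10 genes with values in every group whose promoters hold CHR letters. The choice thus fixed that all 5 hold them. On day 3 the first 4 genes fell and Cenpm rose. They lie at chr1:199952544-199952843 (minus strand, Mki67), chr10:84473044-84473343 (minus strand, Top2a), chr20:19265043-19265342 (plus strand, Cdk1), chr13:103760837-103761136 (minus strand, Cenpf) and chr7:115639318-115639617 (minus strand, Cenpm).
Mki67: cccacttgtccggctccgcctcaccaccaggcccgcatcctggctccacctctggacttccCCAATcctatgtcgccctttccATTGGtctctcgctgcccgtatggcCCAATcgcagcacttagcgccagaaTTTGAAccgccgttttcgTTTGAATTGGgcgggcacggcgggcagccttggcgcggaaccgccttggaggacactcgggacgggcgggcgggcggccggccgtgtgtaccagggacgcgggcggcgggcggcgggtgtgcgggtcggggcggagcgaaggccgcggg
Top2a: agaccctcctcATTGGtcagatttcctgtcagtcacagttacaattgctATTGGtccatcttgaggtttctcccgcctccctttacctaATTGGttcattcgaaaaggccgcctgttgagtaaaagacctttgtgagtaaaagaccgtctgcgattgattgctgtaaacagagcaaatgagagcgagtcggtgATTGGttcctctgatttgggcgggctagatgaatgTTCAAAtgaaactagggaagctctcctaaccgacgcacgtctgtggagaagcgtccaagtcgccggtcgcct
Cdk1: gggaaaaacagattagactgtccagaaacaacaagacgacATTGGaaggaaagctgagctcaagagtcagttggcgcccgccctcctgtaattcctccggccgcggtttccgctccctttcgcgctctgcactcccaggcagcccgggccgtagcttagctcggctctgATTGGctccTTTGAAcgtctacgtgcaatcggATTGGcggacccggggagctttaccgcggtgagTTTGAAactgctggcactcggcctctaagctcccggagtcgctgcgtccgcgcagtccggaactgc
Cenpf: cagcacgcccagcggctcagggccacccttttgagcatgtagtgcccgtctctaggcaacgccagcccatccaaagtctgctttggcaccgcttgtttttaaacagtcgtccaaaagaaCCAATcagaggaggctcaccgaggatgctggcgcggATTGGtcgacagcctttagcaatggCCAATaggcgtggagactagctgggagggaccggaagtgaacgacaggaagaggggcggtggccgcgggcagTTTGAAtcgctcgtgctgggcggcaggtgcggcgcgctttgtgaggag
Cenpm: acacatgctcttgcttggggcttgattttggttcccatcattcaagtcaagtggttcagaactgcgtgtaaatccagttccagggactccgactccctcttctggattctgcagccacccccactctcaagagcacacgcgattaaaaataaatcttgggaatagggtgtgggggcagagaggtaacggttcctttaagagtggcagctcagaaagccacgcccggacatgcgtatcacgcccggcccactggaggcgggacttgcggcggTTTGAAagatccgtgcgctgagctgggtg
The promoters of Mki67, Top2a, Cdk1 and Cenpf hold both kinds of letters, with CCAAT letters more than once in each. The promoter of Cenpm holds the CHR letters once, at bases 21 to 26 after the start, and no CCAAT letters. The promoters of Nuf2, Ndc80, Anln, Bub1b and Kif15 also hold CHR letters without CCAAT letters. Of these genes, Nuf2, Ndc80, Anln and Bub1b fell on day 3 and Kif15 did not pass the test. Bub1, with neither kind, fell on day 3 as well, while Ncapd2, with both kinds, did not pass the test.

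**Figure D1:**
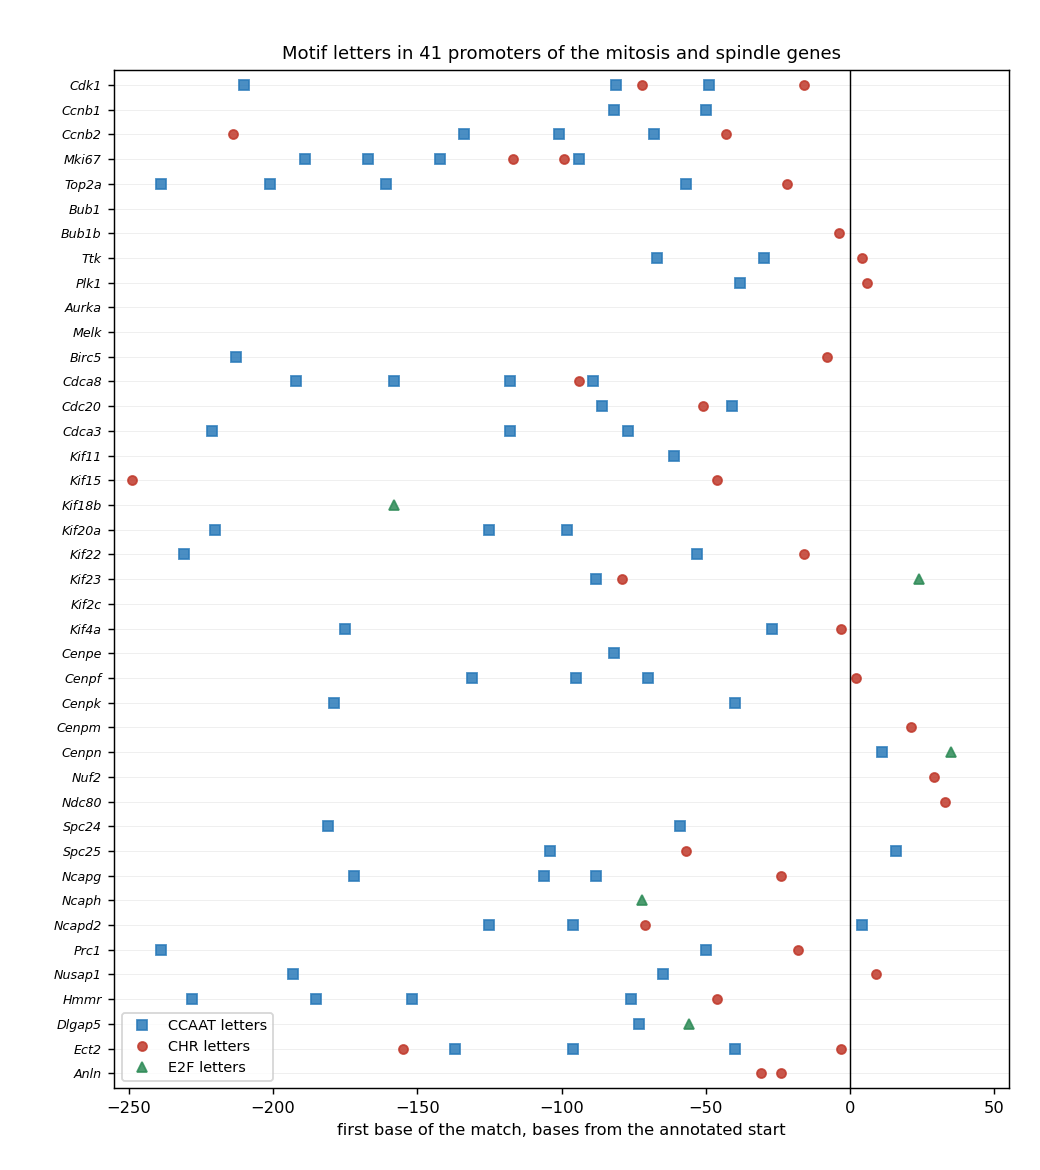
Positions of CHR, CCAAT and E2F letters (points) in 41 promoters of the mitosis and spindle genes, as bases from the annotated start (vertical line), on either strand. CHR letters stand in 26 promoters, in each of them at least once within 100 bases before the start or after it.

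Values are log2 of the intensity plus 1. The array carried 1153 negative control probe sets, whose median lay between 5.01 and 5.43 on the arrays, their 75th percentile between 6.15 and 6.68 and their 95th between 8.19 and 8.95. A gene that lay at or under the 75th percentile of its own array in all 4 livers of a group is called at the control floor there, since its value then gives only a bound. Where only some livers of a group lay over it, their number is given beside the fold. Arrays of a group correlated at 0.990 to 0.996, array medians ranged from 28.9 to 35.5 in intensity, and the number of arrays limits the precision. A gene is said to fall or rise where its limma p, adjusted over all 68842 transcript clusters, lay under 0.05. Each fitted difference is given ± its standard error.

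The mean over the 46 genes was 6.38 ± 0.36 (SD, n = 4) in control livers on day 1, 6.42 ± 0.15 on day 3 and 5.51 ± 0.25 on day 14. In rotenone livers it was 5.76 ± 0.12 on day 1, 5.16 ± 0.06 on day 3 and 5.11 ± 0.04 on day 14. Control livers were thus high for the first days and lower by day 14, while rotenone livers were lower from day 1 and lowest from day 3 on. Of the 46 genes, 21, 24 and 39 were at the control floor in control livers on days 1, 3 and 14, and 37, 43 and 42 in rotenone livers. With the 95th percentile as the floor, 43 of the 46 genes were at it in the control livers of day 1, and 43 on day 3. Livers of a group differed together: in control livers of day 1, replicate 4 had the highest value for 38 of the 46 genes and replicate 1 the lowest for 35. In control livers of day 14, replicate 2 had the lowest value for 41.

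**Figure D2:**
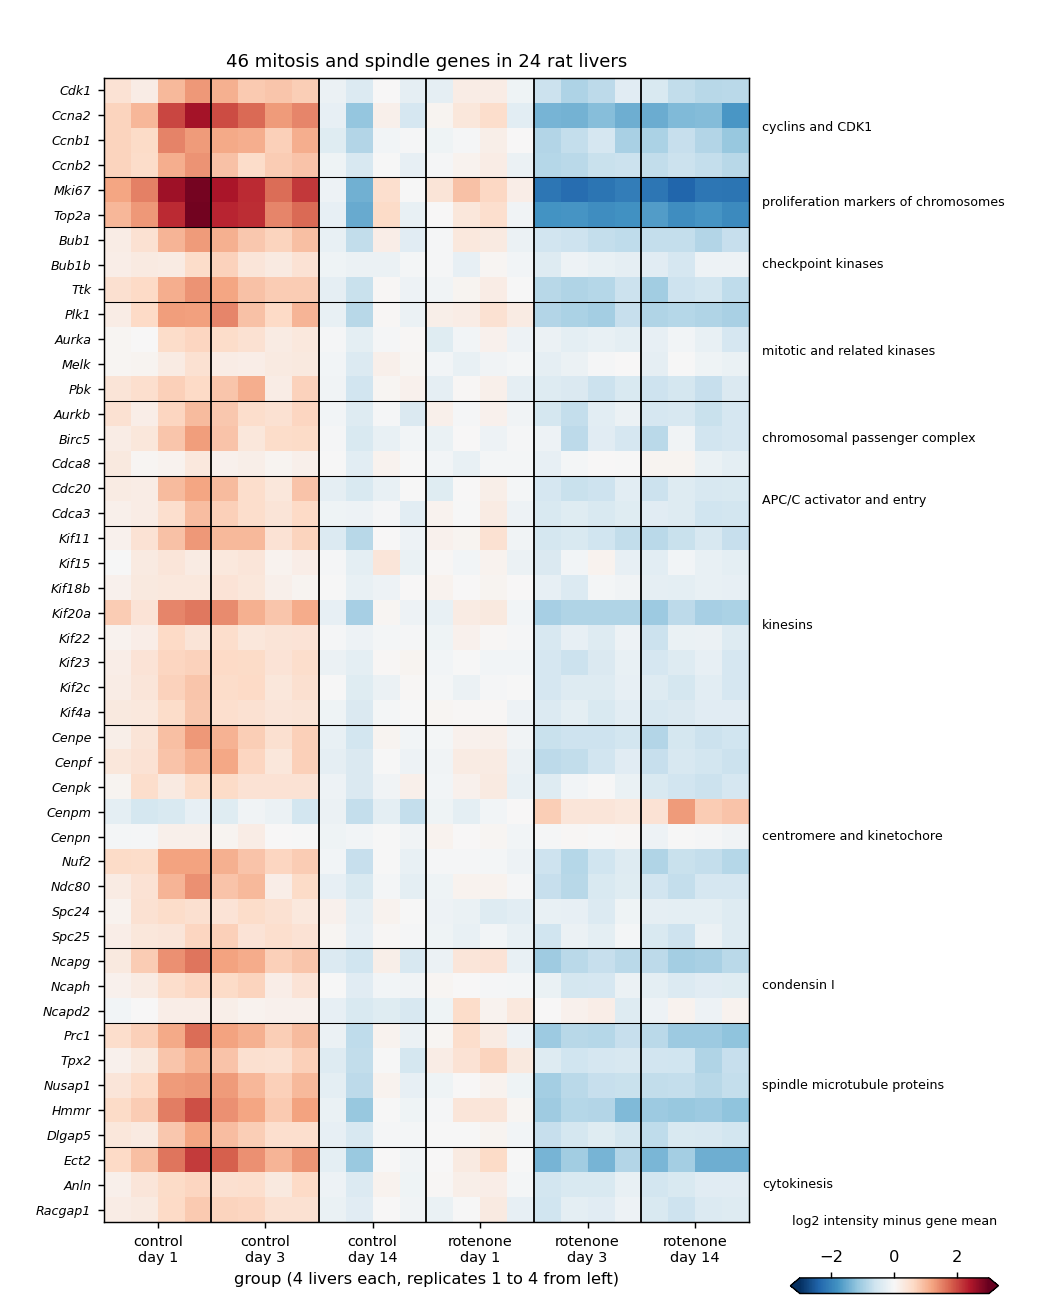
Each row is a gene, grouped by role, and each column a liver. Colour gives log2 intensity minus the gene's mean over the 24 livers, with colours saturating beyond 3 in either direction. The 8 control livers of days 1 and 3 are red for nearly every gene and the 8 rotenone livers of days 3 and 14 blue, with Cenpm the other way round.

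On day 1, 29 of the 46 genes fell in rotenone livers and 0 rose by limma (41 lower and 0 higher at an unadjusted p under 0.05), while 3.73% of the 22093 genes and 2.17% of all transcript clusters fell and 5.69% of genes rose. For 11 of the 29 both groups were at the control floor. The 17 genes that did not pass differed by −0.66 (Bub1) to 0.25 (Cenpm). The median difference was −0.61, against −0.03 over the 22093 genes. In 29 genes all 4 rotenone livers lay below all 4 control livers, as they did in 8.38% of all genes. The count fell to 14 without control day 1 replicate 4, to 15 without control day 1 replicate 3, and to 17 without rotenone day 1 replicate 1 or without replicate 4, and 14 of the 29 genes were called whichever liver was left out (Ccna2, Ccnb1, Ccnb2, Mki67, Top2a, Ttk, Kif20a, Kif23, Kif2c, Kif4a, Nuf2, Spc24, Spc25 and Nusap1).

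On day 3, 40 of the 46 genes fell and 1, Cenpm, rose, against 3.11% of genes and 1.56% of transcript clusters that fell and 3.53% of genes that rose. For 20 of the 40 both groups were at the control floor, so that the test rested on values under it. The median difference was −1.15, against 0.03 over all genes. In 43 genes the rotenone livers all lay below the control livers, as in 7.41% of all genes. The same 40 genes were called lower whichever liver was left out. Kif15 (−0.41 ± 0.13), Melk (−0.36 ± 0.11), Cdca8 (−0.22 ± 0.11), Ncapd2 and Cenpn did not pass the test.

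On day 14, 5 of the 46 genes fell (Mki67, Top2a, Ect2, Prc1 and Ccnb2) and 1 rose (Cenpm), against 3.33% of genes and 1.83% of transcript clusters that fell and 5.98% of genes that rose. For Ect2, Prc1 and Ccnb2, 3 of the 5, both groups were at the control floor. The 40 genes that did not pass differed by −1.03 (Ccna2) to 0.37 (Ncapd2). The median difference was −0.32, against 0.01 over all genes. In 16 genes the rotenone livers all lay below the control livers, as in 5.95% of all genes. Only Mki67 was called lower whichever liver was left out. The count was 13 without control day 14 replicate 2, 3 without control day 14 replicate 1 or rotenone day 14 replicate 1, 2 without control day 14 replicate 4 or rotenone day 14 replicate 3, and 1 without control day 14 replicate 3 or without rotenone day 14 replicate 2 or 4.

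**Figure D3:**
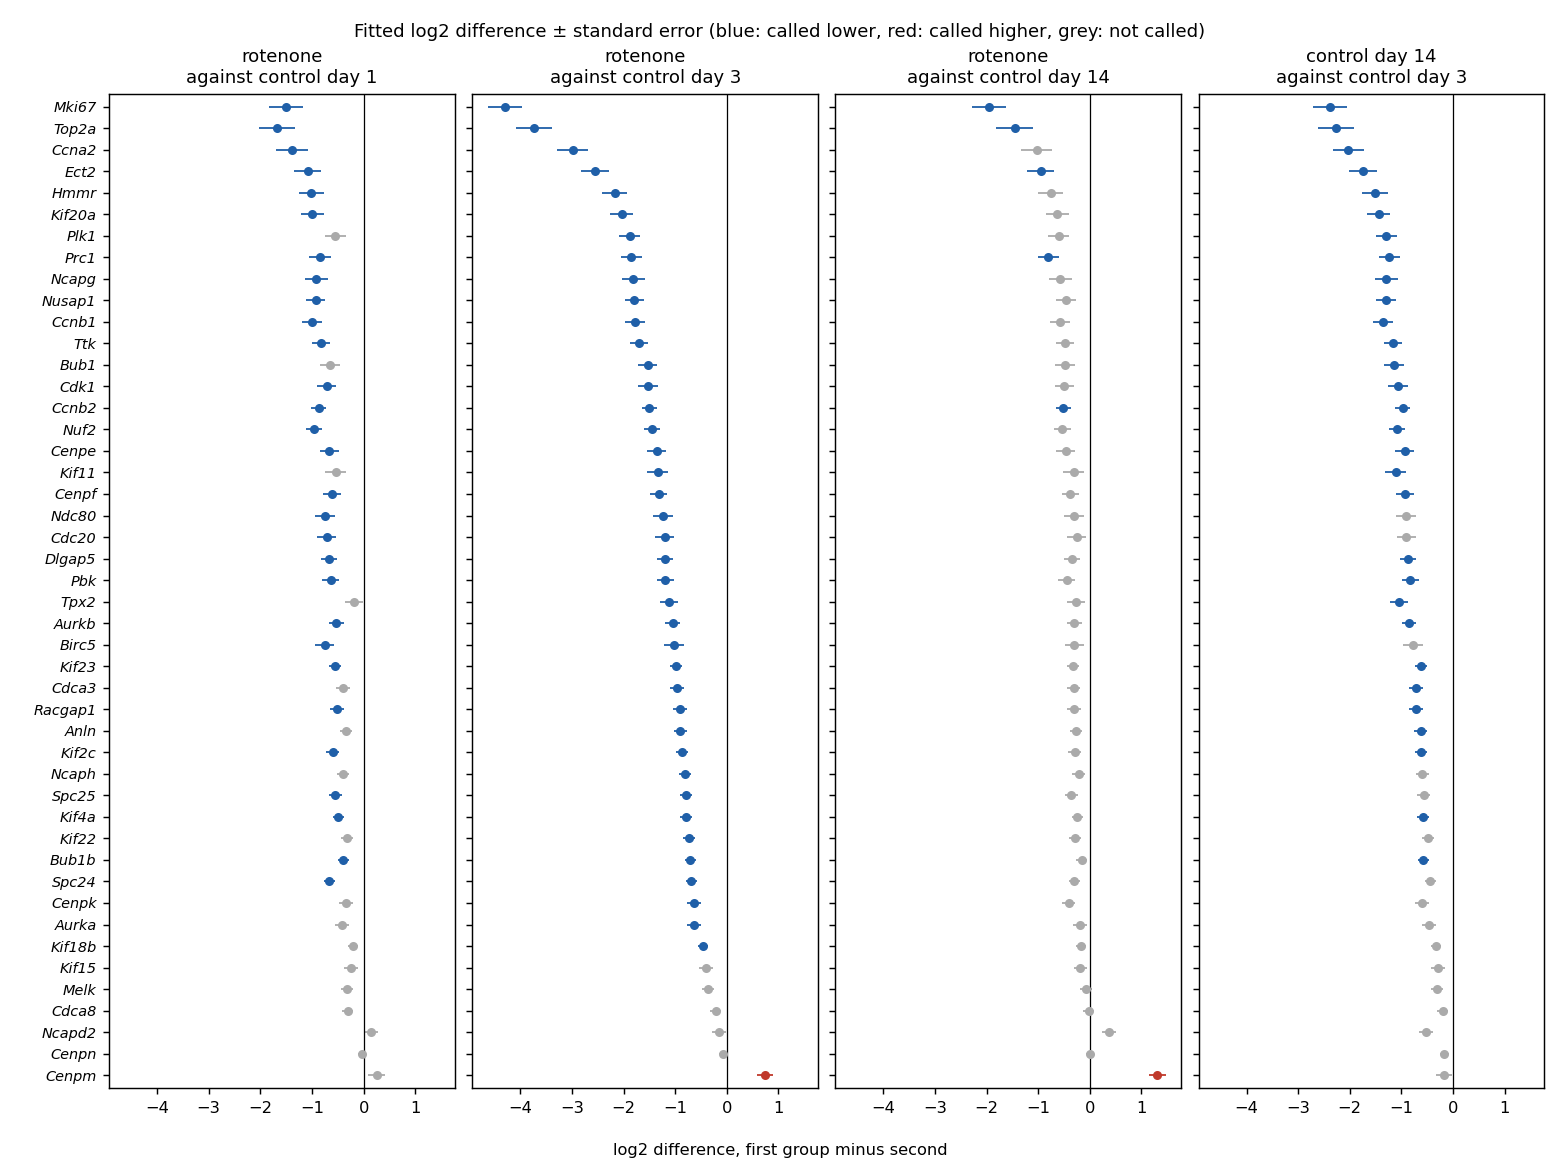
Fitted log2 difference (points) ± standard error (bars) of each gene in 4 comparisons, ordered by the difference on day 3. Blue genes were called lower, red genes higher and grey genes neither. On day 3 the differences run from −4.29 for Mki67 to 0.75 for Cenpm.

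Mki67 and Top2a are the standard markers of cycling cells: the Ki-67 protein coats mitotic chromosomes, and topoisomerase II alpha untangles sister chromatids. Mki67 read 8.69, 9.02, 10.05 and 10.37 in the control livers of day 1, 9.94, 9.75, 9.17 and 9.62 on day 3, and 7.35, 6.07, 8.00 and 7.50 on day 14. In rotenone livers it read 7.89, 8.38, 8.13 and 7.71 on day 1, 5.34, 5.21, 5.32 and 5.44 at day 3, and 5.33, 5.12, 5.34 and 5.31 on day 14. The groups did not overlap on any day, and all 8 rotenone livers of days 3 and 14 lay within the narrow range of 5.12 to 5.44, close to the median negative control. By limma, Mki67 fell by 1.51 ± 0.33 on day 1, a fold of 2.84 (adjusted p = 0.00737), and fell by 4.29 ± 0.33 on day 3, at least 9.02-fold (adjusted p = 1.11e-07). It fell by 1.95 ± 0.33 on day 14, at least 1.82-fold with 3 of 4 control livers over the floor (limma, adjusted p = 0.000860).

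Top2a read 7.74, 8.06, 9.01 and 9.66 in the control livers of day 1, 9.05, 8.98, 8.23 and 8.47 on day 3, and 6.52, 5.24, 7.34 and 6.54 on day 14. In rotenone livers it read 6.76, 7.10, 7.26 and 6.64 on day 1, 4.96, 4.98, 4.90 and 4.94 at day 3, and 5.08, 4.89, 5.00 and 4.85 on day 14. Again no liver of one diet overlapped the other within a day, although control day 14 replicate 2, at 5.24, came near the rotenone livers. By limma, Top2a fell by 1.68 ± 0.35 on day 1 (3.20-fold, adjusted p = 0.00547) and fell by 3.74 ± 0.35 on day 3 (at least 4.71-fold, adjusted p = 1.54e-06). It fell by 1.46 ± 0.35 on day 14 (at least 1.03-fold with 3 of 4 control livers over the floor, limma, adjusted p = 0.0172).

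**Figure D4:**
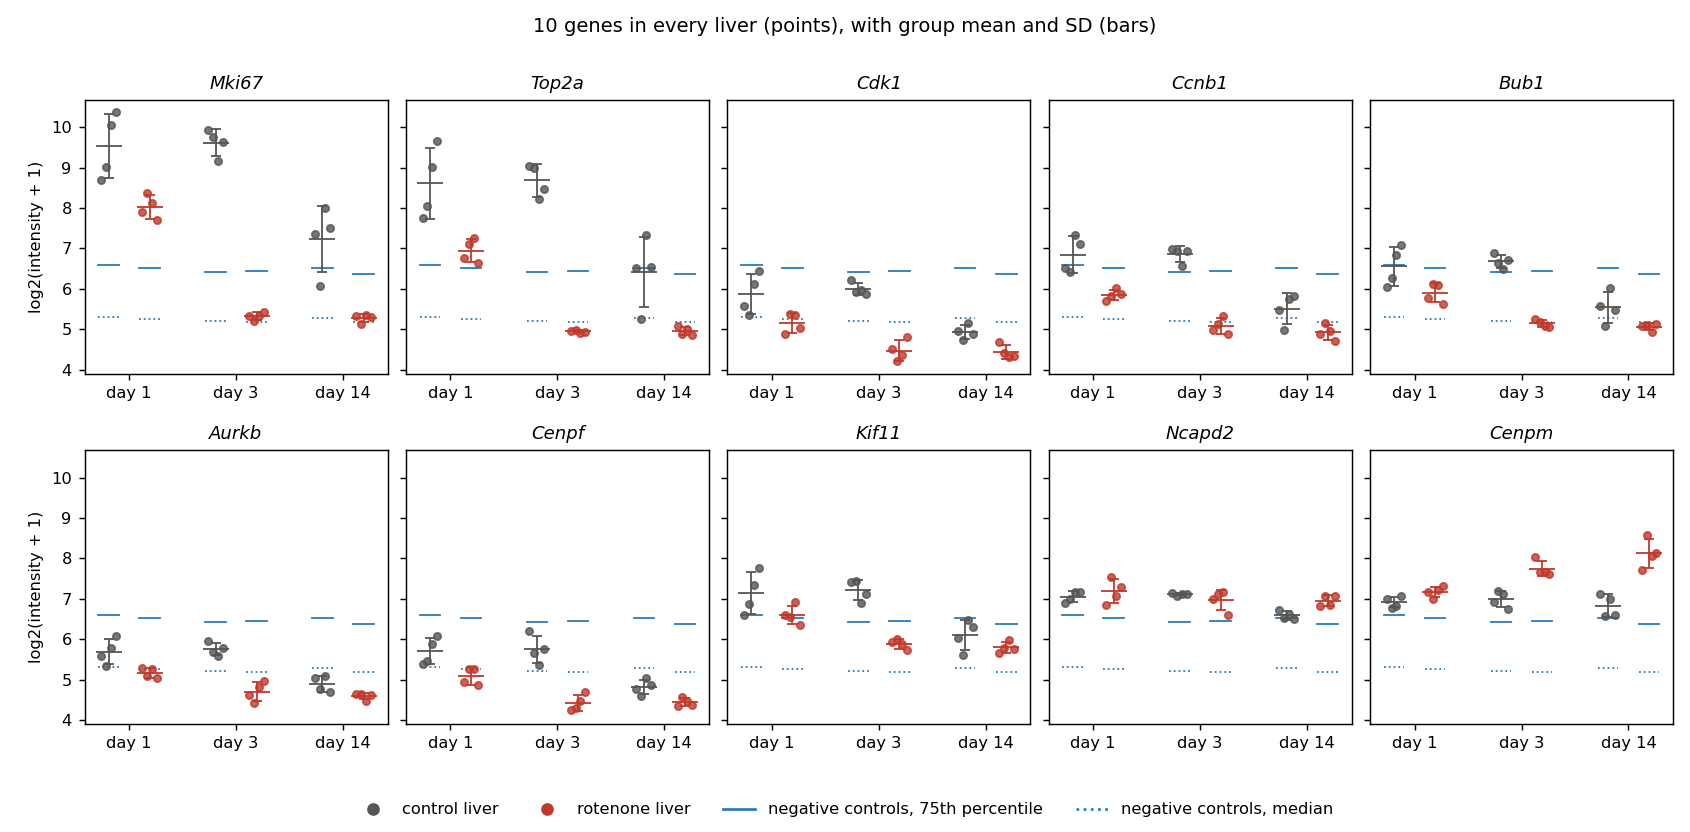
Log2 intensity of 10 genes in every liver (points), by day, with the group mean and SD as bars, control livers in grey and rotenone livers in red. Blue lines give the negative controls of the same arrays, solid for the 75th percentile and dotted for the median. Mki67 and Top2a stand far above these lines in control livers of days 1 and 3 and near the dotted line in rotenone livers of days 3 and 14. Cenpm is higher in rotenone livers on both day 3 and day 14. Ncapd2 is higher in rotenone livers on day 14, without passing the test.

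All 4 genes of Cdk1 and its cyclins fell on days 1 and 3, and on day 14 only Ccnb2, cyclin B2, passed the test (−0.51 ± 0.15, adjusted p = 0.0452). Cdk1, the kinase that drives entry into mitosis, read 5.57, 5.35, 6.11 and 6.44 in control and 4.87, 5.37, 5.36 and 5.02 in rotenone livers on day 1. On day 3 it read 6.21, 5.93, 5.97 and 5.88 against 4.50, 4.21, 4.36 and 4.81. The day 1 ranges of Cdk1 overlapped slightly and those of day 3 lay far apart, all under the control floor, so that no fold is given: Cdk1 fell by 0.71 ± 0.19 on day 1 (adjusted p = 0.0269) and fell by 1.53 ± 0.19 on day 3. On day 14 Cdk1 read 4.96, 4.73, 5.16 and 4.88 in control and 4.68, 4.41, 4.32 and 4.35 in rotenone livers, a difference of −0.49 ± 0.19 that did not pass the test (adjusted p = 0.147). Its call on day 1 was lost in 7 of 16 refits.

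Ccnb1 encodes cyclin B1, the partner of Cdk1 at mitotic entry. It read 6.51, 6.41, 7.34 and 7.12 in control and 5.71, 5.82, 6.01 and 5.87 in rotenone livers on day 1, and 6.99, 6.94, 6.56 and 6.94 against 4.97, 5.12, 5.33 and 4.87 on day 3. The groups were apart on both days. Ccnb1 fell by 0.99 ± 0.19 on day 1 (at least 1.25-fold, with 2 of 4 control livers over the floor). It fell by 1.78 ± 0.19 on day 3 (at least 1.33-fold), and on day 14 its difference of −0.58 ± 0.19 did not pass. On that day Ccnb1 read 5.49, 4.97, 5.76 and 5.81 in control and 4.89, 5.14, 4.97 and 4.70 in rotenone livers, with overlap. Ccna2, cyclin A2, which acts from S phase to early mitosis, fell by 1.39 ± 0.30 on day 1 (2.62-fold, with 3 of 4 rotenone livers over the floor) and fell by 2.99 ± 0.30 on day 3 (at least 3.60-fold).

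The 3 checkpoint kinases hold anaphase back until every chromosome is attached, and all 3 fell on day 3, with Bub1b and Ttk lower on day 1 as well and none past the test on day 14 (limma; unadjusted p under 0.05 for Bub1 and Ttk). Bub1 read 6.04, 6.28, 6.84 and 7.08 in control and 5.78, 6.12, 6.08 and 5.63 in rotenone livers on day 1, and 6.88, 6.63, 6.49 and 6.71 against 5.24, 5.19, 5.09 and 5.05 on day 3. The ranges overlapped on day 1 (−0.66 ± 0.19, adjusted p = 0.0510) and were more than 1 unit apart on day 3, when Bub1 fell by 1.53 ± 0.19. Its day 14 livers read 5.58, 5.09, 6.02 and 5.47 under the control diet and 5.09, 5.11, 4.93 and 5.12 under rotenone, which overlapped (−0.48 ± 0.19). Ttk, which is also called Mps1, fell by 0.83 ± 0.17 on day 1 and fell by 1.70 ± 0.17 on day 3. Ttk and Bub1b lay under the control floor in every group.

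Of the 4 genes of other mitotic kinases, 1 (Pbk) fell on day 1, 3 on day 3 and 0 on day 14 by limma. Plk1, a kinase of centrosome maturation and mitotic exit, was not past the test on day 1 (−0.55 ± 0.20) but fell by 1.88 ± 0.20 on day 3 (at least 1.63-fold). Aurka, which acts at the spindle poles, fell by 0.64 ± 0.14 on day 3. In the chromosomal passenger complex, which corrects wrong attachments and later steers cytokinesis, Aurkb and Birc5 fell on days 1 and 3 and Cdca8 did not pass on any day. Aurkb read 5.58, 5.33, 5.79 and 6.08 in control and 5.28, 5.09, 5.26 and 5.04 in rotenone livers on day 1, and 5.94, 5.67, 5.60 and 5.78 against 4.62, 4.42, 4.82 and 4.96 on day 3. Every rotenone liver lay below every control liver on both days, and all lay under the control floor. Aurkb fell by 0.53 ± 0.14 on day 1 and fell by 1.05 ± 0.14 on day 3, with the day 1 call lost in 8 of 16 refits. Its day 14 livers read 5.04, 4.76, 5.09 and 4.70 under the control diet and 4.64, 4.65, 4.48 and 4.63 under rotenone, apart but without passing the test (−0.30 ± 0.14). Cdc20, which switches on the anaphase promoting complex, fell by 0.71 ± 0.18 on day 1 and fell by 1.20 ± 0.18 on day 3, and Cdca3 only passed on day 3. On both days Cdc20 had 2 of 4 control livers and no rotenone liver over the control floor. Cdca3 lay under it in every group.

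Of the 8 kinesins, the motors that slide, sort and trim microtubules, 4 fell on day 1, 7 on day 3 and 0 on day 14 by limma, with day 3 differences from −2.03 for Kif20a to −0.41 for Kif15. Kif11, the motor that pushes the spindle poles apart, read 6.59, 6.88, 7.34 and 7.76 in control and 6.60, 6.54, 6.91 and 6.36 in rotenone livers on day 1, and 7.42, 7.43, 6.89 and 7.13 against 5.92, 6.00, 5.87 and 5.72 on day 3. The ranges overlapped on day 1 (−0.54 ± 0.20, adjusted p = 0.157) and not on day 3, when Kif11 fell by 1.34 ± 0.20 (at least 1.70-fold). Its day 14 livers read 6.04, 5.61, 6.48 and 6.31 under the control diet and 5.66, 5.78, 5.97 and 5.76 under rotenone, which overlapped (−0.31 ± 0.20). Kif20a, a motor of the central spindle, fell by 0.99 ± 0.22 on day 1 and fell by 2.03 ± 0.22 on day 3, at least 1.39-fold and at least 1.52-fold. On day 1, 3 of 4 control livers lay over the floor for Kif20a.

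The microtubule proteins Prc1, Tpx2, Nusap1, Hmmr and Dlgap5 all fell on day 3. Tpx2, which nucleates microtubules around chromosomes and activates aurora A, stood apart from the others on day 1: it read 7.21, 7.38, 7.92 and 8.14 in control and 7.30, 7.52, 7.74 and 7.36 in rotenone livers. These ranges overlapped and the difference was −0.18 ± 0.17, whereas the other 4 had fallen by then. By day 3 Tpx2 read 7.92, 7.55, 7.53 and 7.79 against 6.68, 6.48, 6.58 and 6.60, and fell by 1.11 ± 0.17, a fold of 2.16. Hmmr, a spindle assembly factor, fell by 1.02 ± 0.25 on day 1 and fell by 2.17 ± 0.25 on day 3, and Prc1, which bundles the central spindle, differed by −0.84 ± 0.21, −1.85 ± 0.21 and −0.81 ± 0.21 on days 1, 3 and 14, each past the test.

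For cytokinesis, Ect2, which activates RhoA at the division plane, fell by 1.09 ± 0.27 on day 1 (2.12-fold, with 2 of 4 rotenone livers over the floor), fell by 2.55 ± 0.27 on day 3 (at least 2.40-fold) and fell by 0.96 ± 0.27 on day 14. Racgap1, its partner from centralspindlin, fell by 0.52 ± 0.14 on day 1 and fell by 0.90 ± 0.14 on day 3, and Anln, a scaffold of the contractile ring, fell by 0.90 ± 0.12 on day 3. Racgap1 and Anln lay under the control floor in every group.

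The 9 centromere and kinetochore genes divided. Those of the outer kinetochore and of its NDC80 complex, which grips microtubules (Ndc80, Nuf2, Spc24 and Spc25), fell on days 1 and 3, Nuf2 with differences of −0.96 ± 0.16 and −1.45 ± 0.16. So did Cenpe, a kinetochore motor, and Cenpf, a large protein of the outer kinetochore. Spc24 and Spc25 lay under the control floor in every group. Cenpf read 5.39, 5.47, 5.88 and 6.07 in control and 4.93, 5.27, 5.27 and 4.86 in rotenone livers on day 1, and 6.20, 5.67, 5.37 and 5.75 against 4.25, 4.31, 4.47 and 4.69 on day 3. The livers did not overlap on either day and all lay under the control floor, and Cenpf fell by 0.62 ± 0.17 on day 1 and fell by 1.32 ± 0.17 on day 3. The day 1 call of Cenpf was lost in 8 of 15 refits. Its day 14 livers read 4.76, 4.60, 5.03 and 4.87 under the control diet and 4.34, 4.56, 4.48 and 4.38 under rotenone, apart but without passing the test (−0.38 ± 0.17).

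Cenpk, Cenpm and Cenpn belong to the inner kinetochore network on centromeric chromatin, and they gave 3 different results. Cenpk fell by 0.64 ± 0.13 on day 3, with values under the control floor in every group. Cenpn differed by −0.04 ± 0.08, −0.07 ± 0.08 and 0.00 ± 0.08 on the 3 days, with 95% intervals between −0.24 and 0.17. Its values lay under the control floor in every group.

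Cenpm rose. It read 7.00, 6.78, 6.83 and 7.06 in control and 7.16, 7.00, 7.22 and 7.31 in rotenone livers on day 1, 6.92, 7.20, 7.13 and 6.75 against 8.03, 7.67, 7.66 and 7.61 on day 3, and 7.13, 6.57, 7.00 and 6.59 against 7.72, 8.58, 8.06 and 8.14 on day 14. The rotenone livers overlapped the control livers on day 1 and lay above all of them on days 3 and 14, and every group mean was over the control floor. Cenpm differed by 0.25 ± 0.16 on day 1 (adjusted p = 0.460), rose by 0.75 ± 0.16 on day 3 (1.68-fold, adjusted p = 0.00882) and by 1.31 ± 0.16 on day 14 (2.47-fold with 3 of the 4 control livers over the floor, adjusted p = 2.66e-05). Both rises were called in all 16 refits.

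Condensin I, the ring that compacts mitotic chromosomes, also divided. Ncapg fell by 0.92 ± 0.22 on day 1 and fell by 1.81 ± 0.22 on day 3, and Ncaph fell by 0.81 ± 0.12 on day 3. Ncaph lay under the control floor in every group. Ncapg had 2 of 4 control livers over it on day 1 and 1 on day 3, and no rotenone liver, so that no fold is given. Ncapd2, a regulatory subunit, read 6.89, 6.98, 7.17 and 7.18 in control and 6.85, 7.54, 7.08 and 7.29 in rotenone livers on day 1, and 7.14, 7.08, 7.12 and 7.11 against 6.99, 7.11, 7.18 and 6.60 on day 3. These values overlapped on both days, at 0.14 ± 0.13 and −0.14 ± 0.13. On day 14 the control livers read 6.72, 6.52, 6.61 and 6.49 and the rotenone livers 6.82, 7.08, 6.84 and 7.07. Here every rotenone liver was higher, but the difference of 0.37 ± 0.13 did not pass the test (adjusted p = 0.130).

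Calls were also counted by promoter letters, as a description with no test. On day 1, 19 of the 26 genes with CHR letters and 6 of the 15 without them fell. On day 3 the counts were 22 of 26, with Cenpm the 1 rise, and 13 of 15. On day 14 they were 5 of 26 and 0 of 15, and among control livers of day 14 set against day 3 they were 17 of 26 and 8 of 15. The share of genes that fell was thus higher with the letters in 3 comparisons and about equal on day 3. The comparisons hold the same genes and in part the same livers. Of the 5 calls on day 14 only that of Mki67 held whichever liver was left out. The median difference with and without the letters was −0.71 and −0.54 on day 1, −1.28 and −0.87 for day 3 livers, −0.37 and −0.31 for livers of day 14, and −0.92 and −0.62 between the control groups.

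Control livers alone were compared over time, since the genes fell there too. From day 1 to day 3 no gene passed the test (limma; 0 of the 46 also at an unadjusted p under 0.05, and 0% of all genes called), with differences from −0.15 to 0.17. From day 3 to day 14, 30 of the 46 fell and all 46 were lower in the fit, with a median of −0.86, while 0.285% of all genes fell. The 30 genes were 47.6% of the 63 genes of the array called lower in that comparison. In 43 of the 46 every liver of day 14 lay below every liver of day 3, as in 2.96% of all genes. For 12 of the 30 both groups were at the control floor. Mki67 fell 5.25-fold, a difference of −2.39 ± 0.33 (adjusted p = 0.00471), Top2a 4.83-fold, Ccna2 4.08-fold and Kif11 2.16-fold, and Ect2 at least 2.28-fold. Of the 4 control livers of day 14, 3 lay over the floor for Mki67 and Top2a and 1 for Ccna2 and Kif11. With the livers under it set to the floor, the folds of these 4 genes were 4.74, 3.78, 3.21 and 1.63. Cenpn and Cenpm were the least changed of the 46, at −0.17 ± 0.08 and −0.18 ± 0.16. The count was 10 without control day 3 replicate 1 or control day 14 replicate 2, 15 without control day 3 replicate 2, 16 without control day 14 replicate 1 and 19 without control day 3 replicate 4. The 10 genes called whichever liver was left out were Ccna2, Ccnb1, Ccnb2, Mki67, Top2a, Ttk, Kif20a, Nuf2, Nusap1 and Ect2.

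Control day 14 against control day 1 gave 22 genes lower and 0 higher by limma (43 and 0 at an unadjusted p under 0.05), against 0.177% of all genes lower, with a median of −0.86 and both groups at the control floor for 4 of the 22. The largest falls were those of Mki67 (−2.31 ± 0.33), Top2a (−2.21 ± 0.35), Ccna2 (−1.98 ± 0.30) and Ect2 (−1.67 ± 0.27). That count was 1 without control day 1 replicate 4, 4 without control day 1 replicate 3 or control day 14 replicate 2, and 14 without control day 14 replicate 1 or 4. These 3 comparisons share control livers with each other and with those of the diets.

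In rotenone livers 11 genes fell from day 1 to day 3 (Mki67, Top2a, Ccna2, Ect2, Hmmr, Plk1, Prc1, Kif20a, Tpx2, Ttk and Ccnb2) against 0.756% of all genes, with a median of −0.49. Mki67 fell by 2.70 ± 0.33 between those days, at least 2.99-fold, and Top2a, Ccna2 and Ect2 differed by −1.99 ± 0.35, −1.55 ± 0.30 and −1.39 ± 0.27. For 5 of the 11 both groups were at the control floor. The count was 4 without rotenone day 1 replicate 3, 5 without rotenone day 1 replicate 2 and 7 without rotenone day 3 replicate 1 or 3. From day 3 to day 14 the count was 0 by limma (1 lower and 1 higher at an unadjusted p under 0.05), against 0.502% of all genes in either direction, with a median of −0.05 and 42 of the 46 genes at the control floor in both groups. No further fall was called there, and values under the floor give only a bound.

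**Figure D5:**
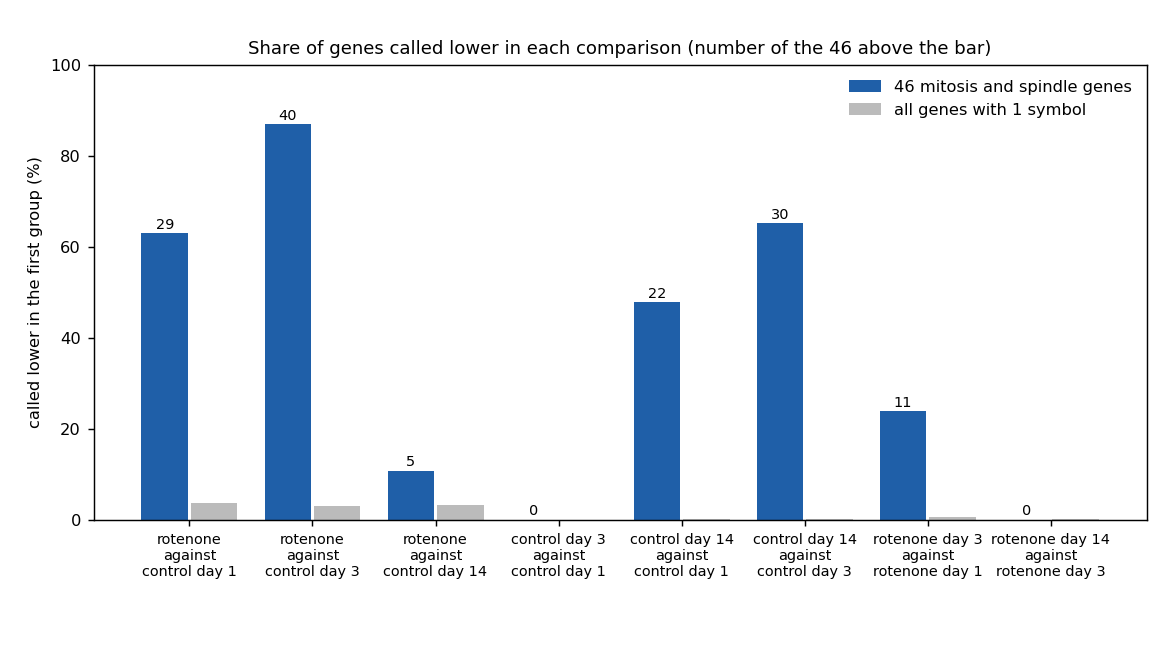
Percent of genes called lower in the first group of each comparison, for the 46 mitosis and spindle genes (blue, number above the bar) and all 22093 genes (grey). The share of the 46 is 63.0% on day 1, 87.0% on day 3 and 10.9% on day 14 for rotenone against control, and 65.2% where control livers of day 14 were set against those of day 3.

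The change of the rotenone effect between days was tested as a difference of differences. From day 1 to day 3 it was −2.79 ± 0.47 for Mki67 (adjusted p = 0.0136), the 1 gene of the 46 called, against 0.127% of all genes called lower. It was −2.06 ± 0.50 for Top2a and −1.33 ± 0.29 for Plk1, which did not pass, and the median was −0.52. The count was 2 without control day 1 replicate 4. Between day 3 and day 14 the median change was −0.86 in control livers and −0.05 in rotenone livers. In rotenone livers 42 of the 46 genes were at the control floor on both days. From day 3 to day 14 the fitted difference of the effect was above 0 for all 46 genes, from 0.08 for Cenpn to 2.34 for Mki67, with a median of 0.79. None of these passed in limma (41 higher and 0 lower at an unadjusted p under 0.05, lowest adjusted p = 0.0995), 3 were called without rotenone day 14 replicate 1, and 0.0317% of all genes were called in either direction. From day 1 to day 14 only Cenpm was called, by 1.05 ± 0.23 (adjusted p = 0.0246), against 1.24% of all genes called higher. That call was lost in 8 of 23 refits: with array-median centring, and without control day 1 replicate 1 or 4, control day 14 replicate 2, rotenone day 1 replicate 1 or 2, or rotenone day 14 replicate 2 or 4.

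Other genes of cell division were read from 8 lists chosen by function. On day 3, 12 of 32 other kinetochore and centromere genes fell and 0 rose, among them Sgo2, a guardian of centromeric cohesion (−1.10 ± 0.18), Oip5, which helps load centromeric histone (−0.93 ± 0.16), and Kntc1, a checkpoint protein (−0.87 ± 0.10). Of 37 other motors and microtubule proteins 11 fell, led by Ckap2 (−3.03 ± 0.37), Fam83d (−1.50 ± 0.18) and Kif20b (−1.30 ± 0.16). Of 25 other kinases, phosphatases and entry regulators 10 fell, led by Mastl, the Greatwall kinase (−1.89 ± 0.23), Cdkn3 (−1.31 ± 0.15) and Ccnf (−1.22 ± 0.18). The falls were 37.5%, 29.7% and 40% of these 3 lists, against 3.11% of all genes. No gene of these 3 lists rose on day 3, against 3.53% of all genes. On day 14, 0, 0 and 2 genes of the 3 lists fell and 1, 1 and 2 rose. That day 3.33% of all genes fell and 5.98% rose. Under the control floor in every group lay 19 of the 32 kinetochore and centromere genes. So did 15 of the 37 motors and microtubule proteins and 8 of the 25 kinases, phosphatases and entry regulators. A fall of such a gene rests on values under the floor.

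Of 18 genes of the anaphase promoting complex and separase only Ube2c fell on day 3 (−0.95 ± 0.17), 5.56% of the list against the 3.11% of all genes. In condensin and cohesin 4 of 17 fell, led by Esco2, an acetyltransferase of cohesin (−1.27 ± 0.19), Smc4 (−0.99 ± 0.15) and Smc2 (−0.88 ± 0.18), and in cytokinesis 5 of 17, led by Arhgap11a (−1.49 ± 0.19), Depdc1 (−1.31 ± 0.22) and Iqgap3 (−0.66 ± 0.10). Among 23 genes of cell cycle transcription factors and the DREAM complex, 5 fell on day 3, led by Rbl1 (p107, −1.0 ± 0.17) and E2f8 (−0.50 ± 0.12) and with Foxm1, which drives G2 genes, at −0.35 ± 0.09. The DREAM subunits Rbl2 (p130) and E2f4 rose by 0.69 ± 0.13 and 0.70 ± 0.13, and E2f4 had risen by 0.90 ± 0.13 on day 1. They were the 2 rises among the 23 genes on day 3 (8.70%, against 3.53% of all genes). The median difference of the list was −0.02 on that day. On day 14, 0 of the 23 genes fell and 0 rose. Genes under the control floor in every group were 3 of the 18 of the anaphase promoting complex and separase and 1 of the 17 of condensin and cohesin. They were also 6 of the 17 of cytokinesis and 8 of the 23 of transcription factors and DREAM.

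Of 19 p53 targets and cell cycle inhibitors, 3 fell and 0 rose on day 3 (Phlda3 −0.73 ± 0.14, Ccng2 −0.70 ± 0.17, Sesn1 −0.56 ± 0.15). On day 14, 4 fell, led by the Cdk inhibitor Cdkn1a (−2.43 ± 0.53) and Sesn2 (−2.16 ± 0.36), and 2 rose, Gadd45b (1.15 ± 0.24) and the Cdk inhibitor Cdkn1b (0.50 ± 0.14). Of these 19 genes, 1 lay under the control floor in every group. The shares over all 8 lists include the genes under that floor. Over the 186 genes of the 8 lists 13 fell (6.99%) and 6 rose (3.23%) on day 1, against 3.73% and 5.69% of all genes. On day 3, 50 fell (26.9%) and 2 rose (1.08%), against 3.11% and 3.53%. On day 14, 6 fell (3.23%) and 7 rose (3.76%), against 3.33% and 5.98%, so that neither share was above that of all genes. In control livers 11 of the 186 (5.91%, against 0.285% of all genes) fell from day 3 to day 14 and 0 rose, among them Ckap2 (−2.01 ± 0.37) and Mastl (−1.45 ± 0.23). Zwint, a kinetochore protein outside the 46, rose by 0.71 ± 0.18 on day 1 and by 1.18 ± 0.18 on day 14.

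Markers of liver cell types moved beside these genes on some days. On day 3, when 3.11% of all genes fell, 7 of 12 stellate and fibroblast markers fell, with a summed intensity of 15047.8 to 18652 in control and 7174.62 to 10054.7 in rotenone livers, led by Lum (−1.53 ± 0.21), and 4 of 11 erythroid markers fell, with sums of 293103 to 362040 and 203304 to 289740. On day 1, when 5.69% of all genes rose, 6 of 11 sinusoidal endothelial and 3 of 12 macrophage markers rose and 0 fell, with endothelial sums of 21147.5 to 32407.6 in control and 29072.1 to 52083.7 in rotenone livers and macrophage sums of 14448.6 to 27114.9 and 23696.4 to 33982.5. Of 11 hepatocyte markers 1 rose on day 1, 0 changed on day 3 and 1 fell on day 14, with sums of 5183300 to 5238220 in control and 4976410 to 5244100 in rotenone livers on day 3. On day 14, when 3.33% of all genes fell, so did 6 of 12 stellate and fibroblast markers (sums of 13307.3 to 15368.1 in control and 6275.68 to 10030.9 in rotenone livers) and 6 of 11 erythroid markers (258064 to 385072 and 3840.99 to 142827). The 12 macrophage markers, of which some had risen on day 1, had 3 lower and 0 higher on day 14 (sums of 18481.7 to 27833.4 and 9665 to 16608.1). Beside the 11 mitosis genes that fell in rotenone livers from day 1 to day 3 went 5 stellate and fibroblast, 4 erythroid and 3 endothelial markers, against 0.756% of all genes. No marker read 0, but 5 of the 11 erythroid, 2 of the 12 stellate and fibroblast and 1 of the 12 macrophage markers lay under the control floor in every group. Between control livers of day 14 and day 3, and of day 14 and day 1, no gene of the 8 marker lists was called. The part of other cell types in the results above was not tested.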

How the data were processed

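The authors hybridised liver RNA of each animal to 1 Affymetrix Rat Transcriptome Array. The deposited values are intensities on a linear scale, 1 per transcript cluster or control probe set, which the authors made from the scans by Guanine Cytosine Count Normalization, Signal Space Transformation and condensation with RMA. Software versions and the array's genome build were not given in the sources used here. Such condensed values flatten near the background, so small differences there are compressed.

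From these intensities, log2(value + 1) was taken, 1738 control probe sets were set aside and each of 68842 transcript clusters was modelled by its 6 group means over all 24 arrays with limma 3.58.1 in R 4.3.3 (lmFit and eBayes). Two-sided p-values were corrected over all clusters after Benjamini and Hochberg, with a threshold of 0.05. Gene symbols came from the platform annotation, where 23446 clusters had 1 symbol, 505 several and 44891 none; clusters with several were not named. "At least" folds set the brighter group's mean against the mean of, per array, the higher of the gene's value and the 75th percentile of 1153 negative control probe sets. The fit was tested on simulated data with independent noise, and changes were planted only in clusters over a set mean intensity. Calls of dimmer genes, and livers that differ together over many genes, were not covered by it. Promoter letters were searched in RefSeq promoters with Python 3.11.15.

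The 46 genes and the other gene lists were chosen with earlier results of these data known. By rule, values were given for 10 genes in every group and on each day, for the 8 largest falls per day, for every rise, for genes that did not pass by value or range, for up to 4 changes in other comparisons, and for up to 3 changes each way per list. For some lists only day 3 is given by gene. Replicate numbers of the labels name livers and did not pair them: deviations of same-numbered livers from their group means correlated at −0.19 to 0.27, over 0.1 in 11 of 60 pairs. The labels call the livers biological replicates. Alternatives tried were another filter, variance prior, normalization, pseudocount, choice of cluster, floor and fold threshold, the replicate block, only the 8 arrays of a comparison, a filter after the study's methods, and each liver left out in turn.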

Additional observations from a re-analysis of the deposited data

Results flagged for a closer look

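Among 66 sets of 4 livers examined for 1 liver standing apart, 5 had a gap to the next liver that was an unusually large share of the whole range. Chance gives this in about 5 percent of sets. The shares were 0.854 for Mki67 in rotenone livers of day 14 (replicate 2 lowest), 0.838 for Bub1 and 0.893 for Aurkb in the same group (replicate 3 lowest in both), 0.892 for Ccnb1 in control livers of day 3 (replicate 3 lowest) and 0.864 for Cenpm in rotenone livers of day 3 (replicate 1 highest). For Mki67, Bub1 and Aurkb in rotenone livers of day 14 all 4 livers lay under the 75th percentile of the negative controls.

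The rotenone effect differed between days by limma's test of the difference for Mki67, by −2.787 from day 1 to day 3 (standard error 0.47, adjusted p = 0.0136), and for Cenpm, by 1.052 from day 1 to day 14 (standard error 0.23, adjusted p = 0.0246).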

How the results depend on the processing

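On day 3 the number of genes called changed by over 1.5 times only with the filter after the study's methods, to 26. On day 1 it was 19 with quantile normalization, 16 with array-median centring, 7 with only the 8 arrays of the comparison, 10 with the filter after the study's methods and 11 with the 1.8-fold threshold. On day 14 it was 12 among clusters at or above the median mean, 3 with array-median centring, with the pseudocount of 16 or with the 1.8-fold threshold, and 1 with only the 8 arrays. Control day 14 against day 1 gave 12 with array-median centring. The differences of the rotenone effect gave 2 genes from day 1 to day 3 and 2 from day 3 to day 14 among clusters at or above the median mean, and 0 from day 1 to day 14 with array-median centring. The cause was not tested.

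With each liver left out in turn, the counts ranged from 14 to 35 on day 1, from 40 to 40 on day 3 and from 1 to 13 on day 14. They ranged from 1 to 31 in the control livers of day 14 set against day 1, from 10 to 31 against day 3, from 4 to 13 for rotenone day 3 against day 1, and from 1 to 2, 0 to 3 and 0 to 1 for the effect differences of day 3 from day 1, day 14 from day 3 and day 14 from day 1. With the replicate block the counts were 28, 40 and 4 on the 3 days, 19 and 26 for control day 14 against days 1 and 3, and 10 for rotenone day 3 against day 1, and it moved no count by over 1.5 times. No direction reversed. Refits of single called genes kept the call in 486 cases and lost it in 84. With most genes at the control floor by day 3 under rotenone, the array limits how far a fall could be followed.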
